A study of Mus musculus with 8 samples.

Results

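The genes described are 10 genes of fatty acid synthesis, elongation and desaturation, chosen by name, as the entries of the deposited expression table whose identifier before the chromosome was *Acly*, *Acaca*, *Fasn*, *Scd1*, *Scd2*, *Fads2*, *Elovl1*, *Elovl5*, *Elovl6* or *Elovl7*. All 10 were found among the 23427 genes of the table. Cells build palmitate in the cytosol from acetyl-CoA, which ACLY cleaves from citrate, ACACA carboxylates to malonyl-CoA and FASN condenses into a saturated chain. Enzymes of the ELOVL family then lengthen the chain in the endoplasmic reticulum, and the desaturases SCD1, SCD2 and FADS2 place double bonds in it. OLs assemble much of the fatty acid of myelin themselves, and myelin is known for its content of very long and of monounsaturated chains.

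The series followed the mRNA of mouse primary OPCs, the precursors of OLs, through their differentiation in culture. The OPCs were WT cells of C57BL/6J mice, captured with an antibody against PDGFRα from the pooled cortices of week-old pups, and were harvested on Day 0 or after 1, 2 or 3 days in medium that held the thyroid hormone T3 and no PDGF-AA. All groups had the same genotype, and Day 0 differs from the later days in medium as well as in time, so that the change of medium and the time in it cannot be told apart in the first step. For the medium before differentiation, the labels give serum and the methods of the paper give none. What this means for lipid genes was not tested. Each day had 2 libraries, described in the study as independent replicates, and the 8 libraries were each quantified as FPKM, fragments scaled to transcript length and to the mapped fragments of the library. The depth was read from the FPKM that a single fragment gives to genes with 1 annotated transcript, and came to between about 960000 (Day 3, replicate 2) and 1530000 (Day 0, replicate 1) fragments per library.

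The markers of the OL lineage followed the labels. The summed FPKM of 4 OPC markers (*Pdgfra*, *Cspg4*, *Ptprz1*, *Lhfpl3*) went from 935 and 954 on Day 0 to 204 and 112 on Day 3, and all 4 were lower on Day 3. The sum of 4 genes of newly formed OLs (*Enpp6*, *Bcas1*, *Gpr17*, *Tmem163*) was highest on Days 1 and 2, at 1879 to 2653 FPKM, and was 1485 and 771 on Day 3. Of the OL genes, *Mbp* was at 65.2/82.2 FPKM (replicate 1/replicate 2) on Day 0 and 8753/11945 on Day 3, *Mag* at 8.33/10.4 and 1114/1736, *Mog* at 0.764/2.39 and 114/146, *Mobp* at 0.406/2.36 and 432/1227 and *Cnp* at 474/411 and 1962/2160.1, and each of these was higher on Day 3. Markers of other cells were mostly at or near 0. Of the 6 microglial genes *Cx3cr1*, *Csf1r*, *Aif1* and *C1qa* were at 0 in all 8 libraries, *Itgam* was above 0 in a single library and *P2ry12* reached 2.51 FPKM. The sum of the endothelial genes (*Cldn5*, *Pecam1*, *Flt1*, *Cdh5*) was at most 0.428 FPKM, and that of the mural and fibroblast genes (*Pdgfrb*, *Rgs5*, *Vtn*, *Acta2*, *Col1a1*, *Dcn*, *Lum*) at most 2.33. Of the neuronal genes, *Rbfox3* and *Stmn2* stayed under 1 FPKM. *Tubb3*, the most abundant of them, went from 60.2 and 20.8 on Day 0 to 231 and 113 on Day 3 (2.15, adjusted p = 0.0206, limma). *Snap25* went the other way, from 2.15 and 8.46 to 0 and 1.48, as did *Syt1*, from 2.05 and 1.72 to 0.969 and 1.1. Of the 3 neuronal genes tested, 1 was called, and their median log2 fold change was -0.5.

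Astrocyte markers separated the replicates. The summed FPKM of *Gfap*, *Aqp4*, *Slc1a2*, *Slc1a3*, *Aldh1l1*, *Gja1* and *Aldoc* was 120.3, 167, 131 and 147.5 in replicate 1 of Days 0 to 3, and 354, 522, 641 and 952 in replicate 2. *Gfap* was the most abundant of the 7 in every replicate 2 library and *Aldoc* in every replicate 1 library, and *Gja1* was at 0 in replicate 1 on Days 0 and 2. The part of these cells in the results on the fatty acid genes was not tested, and the values of each replicate are therefore given throughout. In bulk RNA, fewer cells of a type and less RNA per cell cannot be told apart.

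All 10 genes reached 1 FPKM in 2 or more libraries, as 12208 genes did, and limma compared the days across these 12208 on the scale of log2(FPKM + 1). A change means an adjusted p under 0.05. Fold changes are on this log2 scale, which understates those of low genes. Between Day 0 and Day 1, the first step, 7 of the 10 fatty acid genes rose (*Acly*, *Fasn*, *Scd1*, *Scd2*, *Elovl1*, *Elovl6*, *Elovl7*), against 5.04% of all genes tested. The test called 0 of the 10 lower, against 7.56% of all genes, and at an unadjusted p under 0.05 the counts were 9 higher and 0 lower, against 10.7% and 16.1% of all genes. The median log2 fold change of the 10 genes was 0.93 and that of all genes -0.07. The count was 7 under each of the 3 other scalings tried (709 to 843 of all genes higher, in place of 615) and 6 with no filter (523). It was 5 without the trend of eBayes (438) or with only these 2 days fitted (406). Fewer of the 10 and fewer of all genes were called higher when any library of Days 0 or 1 was left out, most so without replicate 2 of Day 0. Within replicate 1, 9 of the 10 genes were above their Day 0 value on Day 1 (median 0.71, all genes -0.04), and within replicate 2 all 10 were (median 1.01, all genes -0.10).

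**Figure D1:**
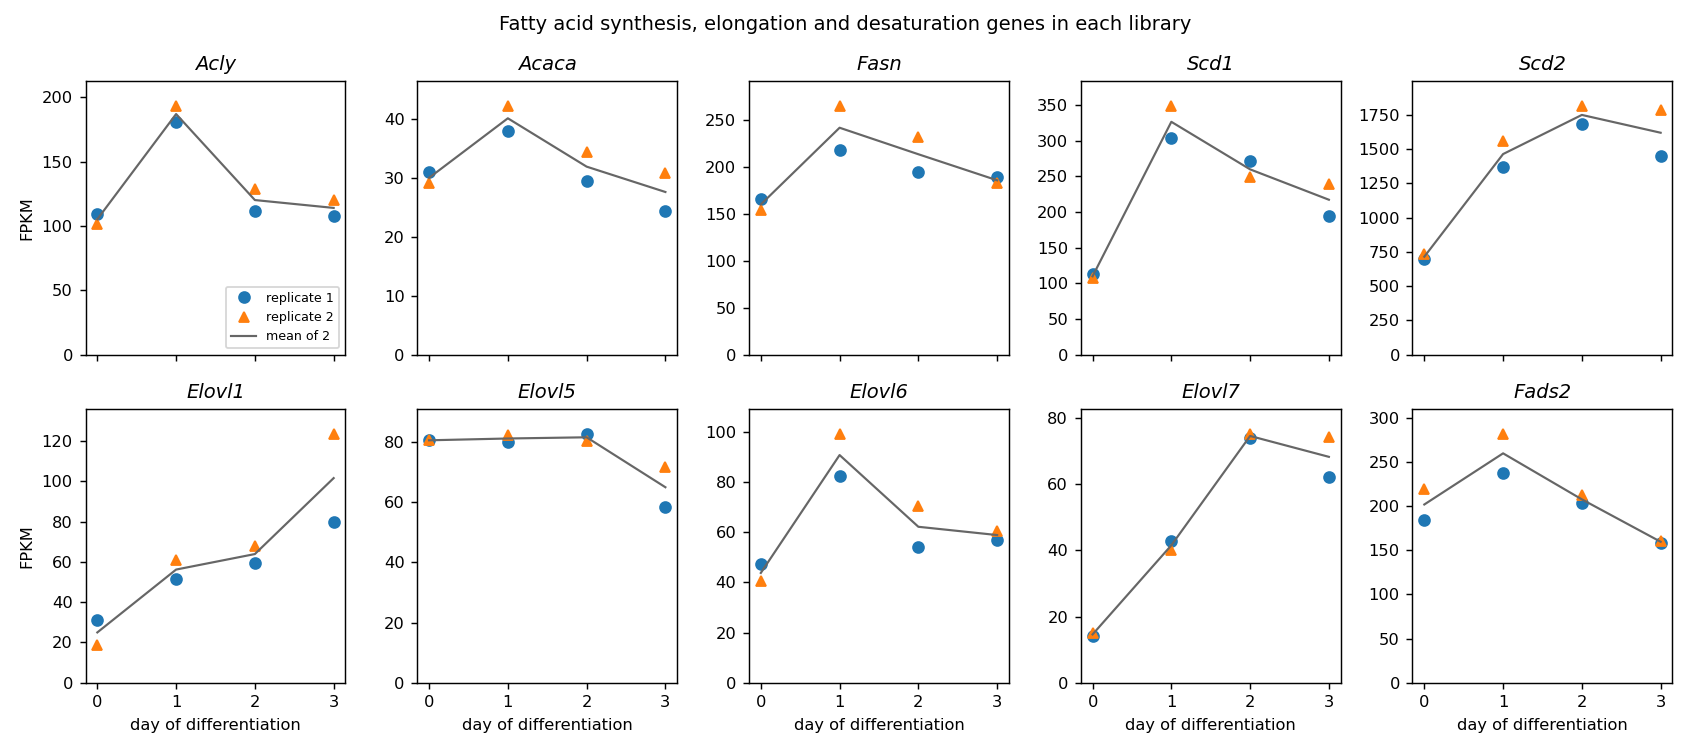
FPKM (y axes, from 0) of each of the 10 genes against the day of differentiation (x axes), with a circle for replicate 1, a triangle for replicate 2 and a line through the mean of the 2 libraries of each day. *Acly*, *Acaca*, *Fasn*, *Scd1*, *Elovl6* and *Fads2* have their highest mean on Day 1, *Scd2*, *Elovl5* and *Elovl7* on Day 2 and *Elovl1* on Day 3.

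*Acly* encodes ATP citrate lyase, the source of cytosolic acetyl-CoA, and lies on the minus strand at chr11:100476353-100528000 (GRCm38). Its 4 days gave 109/101, 181/193, 112/128 and 108/120.3 FPKM (Days 0, 1, 2 and 3 in order, replicate 1/replicate 2, as in all such series below). Both Day 1 libraries stood above all 6 others, and the Day 0 and Day 3 libraries overlapped. On the log2 scale it changed by 0.82 (SE 0.13, adjusted p = 0.00507, limma) in the first step and -0.64 (SE 0.13, adjusted p = 0.04) in the second, which is -0.45 beyond the median gene (-0.19). The second step lost its call under median ratio scaling (-0.44, adjusted p = 0.16), with no filter (0.0608), without the trend of eBayes (0.119), with only the 2 days fitted (0.14) and whenever a library of Days 0 to 2 was left out (adjusted p = 0.0891 to 0.146), and the first step without replicate 2 of Day 0 (adjusted p = 0.0596).

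*Acaca*, which encodes acetyl-CoA carboxylase 1, the committed step of the pathway (chr11:84129672-84401651, plus strand), was the least abundant of the 3 synthesis genes. From Day 0 to Day 3 its FPKM was 31.0/29.1, 38.0/42.2, 29.4/34.4 and 24.3/30.9. The Day 1 libraries were the highest, without overlap, but no step passed the threshold (first step 0.40, adjusted p = 0.173; any change over the days, adjusted p = 0.127, limma). *Acacb*, which encodes the mitochondrial carboxylase, stayed under 0.3 FPKM in every library.

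*Fasn* encodes the fatty acid synthase (chr11:120805846-120824547, minus strand) and gave 165/154, 218/265, 195/232 and 189/183 FPKM from Day 0 to Day 3. All later libraries lay above those of Day 0, and the Day 1 and Day 2 libraries overlapped. The first step was 0.59 (SE 0.15, adjusted p = 0.0343, limma), a call that was lost without replicate 1 of Day 0 (0.133), replicate 2 of Day 0 (0.204) or replicate 2 of Day 1 (0.178), and also with no filter (0.0501), without the trend of eBayes (0.108) and with only these 2 days fitted (0.0745). From Day 0 to Day 3 the change was 0.21 (adjusted p = 0.275), and 0.53 relative to the median of all genes, which fell by 0.31 between these days. With median ratio scaling it was called higher (0.53, adjusted p = 0.0353).

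*Acly* and *Fasn* had their highest mean on Day 1 and *Elovl1* and *Elovl7* on a later day, although all 4 rose in the first step, and a promoter of each of these 4 genes is shown to set the 2 pairs side by side. For *Fasn* the libraries of Days 1 and 2 overlapped, and its second step did not pass (-0.18, adjusted p = 0.512, limma). A second start of *Elovl1* (chr4:118429451-118429750), with 2 matches to GGGCGG, is not printed. RefSeq (GRCm38.p6) gave windows of 300 bases, from 250 before to 50 after a start, for 8 of the 10 genes. Each is printed 5′ to 3′ on the strand of the gene, with matches to the CCAAT box (CCAAT), to the GC box (GGGCGG) or to the reverse complement of either in capitals.

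Acly (chr11:100527951-100528250, minus strand): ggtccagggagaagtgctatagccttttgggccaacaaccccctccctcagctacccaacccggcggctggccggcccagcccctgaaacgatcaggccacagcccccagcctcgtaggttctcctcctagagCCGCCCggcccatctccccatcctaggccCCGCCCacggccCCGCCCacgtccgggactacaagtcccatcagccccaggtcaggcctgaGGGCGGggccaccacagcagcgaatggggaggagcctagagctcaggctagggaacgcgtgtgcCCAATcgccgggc

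Fasn (chr11:120824498-120824797, minus strand): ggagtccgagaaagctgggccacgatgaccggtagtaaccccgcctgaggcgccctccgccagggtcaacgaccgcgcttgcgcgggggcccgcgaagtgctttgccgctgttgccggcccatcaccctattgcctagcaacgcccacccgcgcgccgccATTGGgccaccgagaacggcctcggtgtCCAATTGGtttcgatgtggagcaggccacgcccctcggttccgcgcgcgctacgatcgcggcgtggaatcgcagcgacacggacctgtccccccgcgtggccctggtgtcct

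Elovl1 (chr4:118427843-118428142, plus strand): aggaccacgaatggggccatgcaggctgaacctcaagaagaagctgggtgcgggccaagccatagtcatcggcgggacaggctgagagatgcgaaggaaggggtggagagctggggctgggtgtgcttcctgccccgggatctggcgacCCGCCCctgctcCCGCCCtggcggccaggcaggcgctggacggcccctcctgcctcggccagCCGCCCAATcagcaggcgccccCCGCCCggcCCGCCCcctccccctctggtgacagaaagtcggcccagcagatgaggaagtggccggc

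Elovl7 (chr13:108214154-108214453, plus strand): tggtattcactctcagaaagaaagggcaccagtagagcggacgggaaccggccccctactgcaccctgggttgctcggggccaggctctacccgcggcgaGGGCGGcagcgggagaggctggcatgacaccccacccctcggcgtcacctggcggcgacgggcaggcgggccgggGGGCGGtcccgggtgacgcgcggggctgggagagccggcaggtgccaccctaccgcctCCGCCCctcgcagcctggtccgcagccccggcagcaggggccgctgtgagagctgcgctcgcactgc

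On either strand, CCAAT was found for 4 of the 8 genes (*Acly*, *Fasn*, *Elovl1*, *Elovl5*) and in 37.4% of all 32851 promoters, and GGGCGG for 4 (*Acly*, *Elovl1*, *Elovl7*, *Fads2*) and in 35.7%. The *Fasn* window held 3 matches to CCAAT, at -90, -62 and -59 from the start, of which the last overlap as CCAATTGG. The E-box CACGTG was found for *Elovl5* and in 7.15% of all promoters. The sterol regulatory element core TCACNCCAC, present in 1.24% of all promoters, was not among the letters of these windows. The windows of *Acaca* and *Elovl6* held none of the 4 motifs, and that of *Acaca* (chr11:84195188-84195487) lies at a start inside the gene, not at its outermost start. A match describes the letters only.

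Among the desaturases, *Scd2* was the most abundant of the 10 genes in all 8 libraries. It encodes a stearoyl-CoA desaturase, an enzyme that makes monounsaturated from saturated chains, as does its neighbour *Scd1* (chr19:44293674-44306864, plus strand, and chr19:44394455-44407879, minus strand). *Scd2* gave 699/732, 1369.8/1558, 1684/1815 and 1450.4/1789 FPKM from Day 0 to Day 3. The Day 0 libraries were the lowest by a wide margin, and those of Day 3 overlapped those of Days 1 and 2. The rise in the first step was 1.03 (SE 0.16, adjusted p = 0.00494, limma), a 2.05-fold change of the mean FPKM, and from Day 0 to Day 3 it was 1.17 (SE 0.16, adjusted p = 0.00102). The first step lost its call without replicate 1 (0.072) or replicate 2 (0.0602) of Day 0. With quantile normalization the first step of *Scd2* (*Scd2*: Day 1 against Day 0) was 1.75, and its second step minus first step, -0.77 without it, was called lower (-2.12, adjusted p = 0.0234). By mean FPKM *Scd2* ranked 52 of the 12208 genes on Day 0 and 6, 10 and 9 on Days 1, 2 and 3.

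*Scd1* gave 113/107, 304/349, 271/249 and 195/239.5 FPKM from Day 0 to Day 3. It was highest in both Day 1 libraries and lower on each later day, with no overlap between any 2 consecutive days. The first step was its largest, at 1.56 (SE 0.14, adjusted p = 0.000849, limma), or 2.97-fold in mean FPKM, which ranked 191 from the top among all genes. The second and the last step did not pass (-0.33, adjusted p = 0.236, and -0.26, adjusted p = 0.461). On Day 3 it was still above Day 0, by 0.97 (SE 0.14, adjusted p = 0.00138).

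*Fads2* encodes the delta-6 desaturase, which acts on polyunsaturated chains (chr19:10062765-10101746, minus strand). From Day 0 to Day 3 its FPKM was 184/219, 238/282, 203/212 and 159/161. Both Day 3 libraries were the lowest of the 8 and both Day 1 libraries the highest. No single step passed the threshold (first step 0.36, adjusted p = 0.141), but the test of any change over the days did (adjusted p = 0.0277, limma). *Fads1*, whose product works in the same pathway, gave 99.0/112, 176/211, 152/165 and 118/103 FPKM from Day 0 to Day 3. It rose in the first step (0.86, adjusted p = 0.00666, 0.0715 without replicate 1 of Day 0), and its Day 3 libraries overlapped those of Day 0.

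The 4 elongases took different courses. *Elovl6*, whose enzyme extends palmitate to stearate (chr3:129532355-129638495, plus strand), gave 47.2/40.4, 82.4/99.2, 54.0/70.4 and 57.0/60.7 FPKM from Day 0 to Day 3. The Day 1 libraries stood above all others and those of Day 0 below all others, as for *Scd1*. The first step was 1.03 (SE 0.17, adjusted p = 0.00642, limma), and it lost its call without replicate 2 of Day 0 (0.0683) or of Day 1 (0.0534). The second step did not pass (-0.55, adjusted p = 0.121).

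*Elovl7*, whose enzyme extends saturated very long chains (chr13:108214404-108285683, plus strand), was the lowest of the 10 genes on Day 0. Its 4 days gave 14.1/15.0, 42.9/40.1, 73.8/75.1 and 62.1/74.3 FPKM. The libraries of Days 0, 1 and 2 formed 3 separate levels, and those of Day 3 overlapped Day 2. It rose by 1.45 (SE 0.14, adjusted p = 0.000968, limma) in the first step and by a further 0.83 (SE 0.14, adjusted p = 0.0228) in the second (1.02 relative to the median gene), and it was the only one of the 10 genes called higher in the second step. That call was lost without the trend of eBayes (0.0756), with only the 2 days fitted (0.116) and whenever a library of Days 0 to 2 was left out (adjusted p = 0.0594 to 0.164). By Day 3 the rise over Day 0 had reached 2.15 (SE 0.14, adjusted p = 6.34e-05), or 4.68-fold in mean FPKM. This was the largest of the 10 genes by the mean of both replicates, while within replicate 2 *Elovl1* had the larger rise (2.65, against 2.24). The library with the fewest fragments of *Elovl7*, replicate 2 of Day 0, rests on about 74.

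*Elovl1* encodes an elongase of saturated and monounsaturated very long chains (chr4:118428093-118432953, plus strand). From Day 0 to Day 3 its FPKM was 31.2/18.8, 51.5/60.8, 59.7/68.1 and 79.6/124. The Day 0 libraries were the lowest and the Day 3 libraries the highest, and the replicates differed more than for any other of the 10 genes, by -0.70 (replicate 2 minus replicate 1, log2) on Day 0 and 0.63 on Day 3. Day 3 exceeded Day 0 by 1.99 (SE 0.27, adjusted p = 0.000898, limma), with 1.32 within replicate 1 and 2.65 within replicate 2. The first step of 1.17 (SE 0.27, adjusted p = 0.0255) was not called without replicate 2 of Day 0 (0.176) or either library of Day 1 (0.0629 and 0.143), nor without the trend of eBayes (0.0635) or with only these 2 days fitted (0.0721). Depending on the transcript, 26 to 42 fragments stand behind the lowest library. The 3′ end of *Elovl1* overlaps that of *Cdc20* on the other strand, which was at 117/95.0 FPKM on Day 0 and at most 9.60 later, and the sources used here do not state whether fragments were counted by strand.

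*Elovl5*, whose enzyme extends polyunsaturated chains (chr9:77917364-77984519, plus strand), gave 80.6/80.6, 80.0/82.4, 82.7/80.5 and 58.3/71.7 FPKM from Day 0 to Day 3. The first 6 libraries lay within 3 FPKM of each other and both Day 3 libraries below them. The 95% interval of the first step was -0.30 to 0.32 around 0.01, and that of Day 3 against Day 0 was -0.62 to 0.00 around -0.31 (adjusted p = 0.101, limma). The latter equals the fall of the median of all genes, so that relative to it the change of *Elovl5* was 0.00, and without replicate 2 of Day 3 it was called lower (-0.46, adjusted p = 0.0481).

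**Figure D2:**
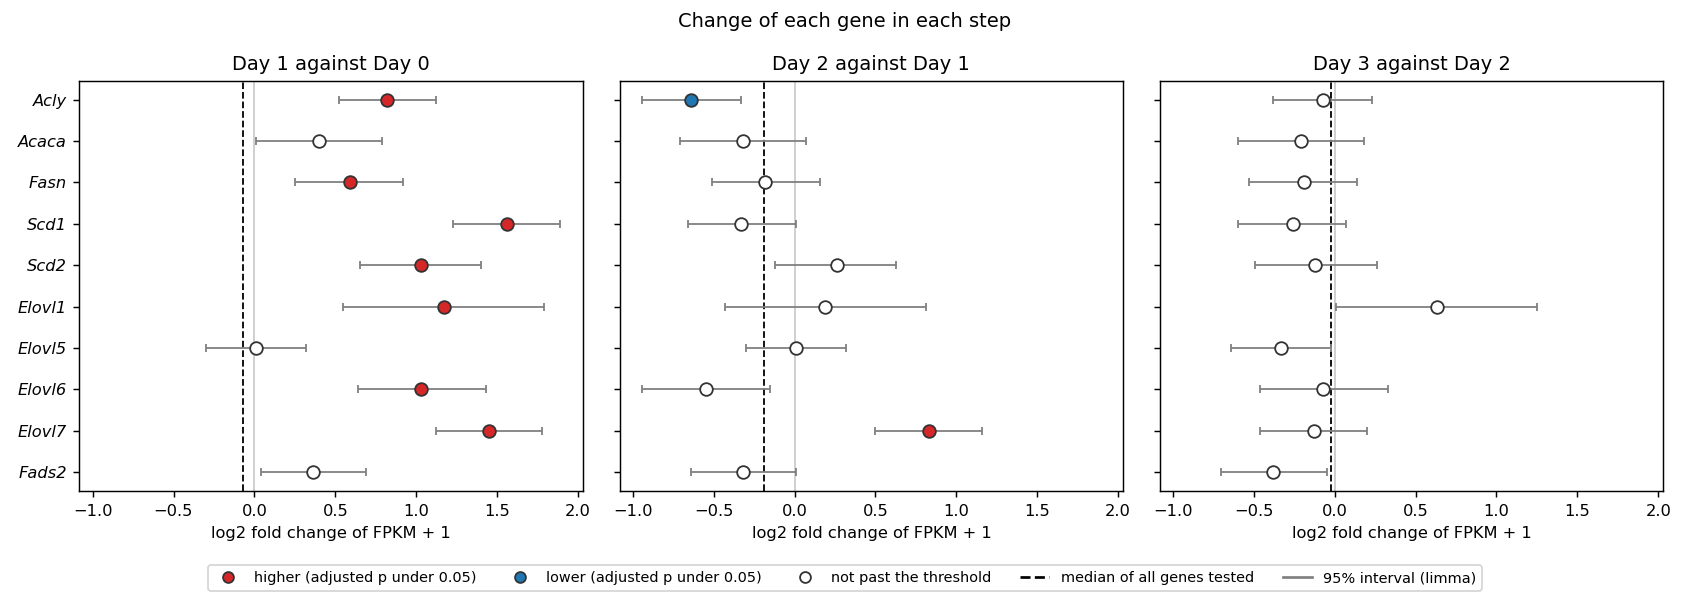
Log2 fold change of FPKM + 1 (x axes) of each gene (y axis) from Day 0 to Day 1, from Day 1 to Day 2 and from Day 2 to Day 3, with the 95% interval of limma as a bar; filled points passed an adjusted p under 0.05 and the dashed line is the median of all 12208 genes. In the first step 7 genes lie to the right of the dashed line and passed, in the second *Elovl7* passed as higher and *Acly* as lower, and in the last step 0 passed.

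In the second step *Elovl7* rose and *Acly* fell, which is 1 of 10 in each direction against 2.16% of all genes higher and 1.73% lower (unadjusted 1 and 2, against 6.6% and 15.2%), and 0 of 10 in each direction when any library of Days 0 to 2 was left out, without the trend of eBayes or with only these 2 days fitted. In the last step limma called 0 of the 10 genes, against 0.246% of all genes higher and 0.0491% lower, and at an unadjusted p under 0.05 it gave 1 higher (*Elovl1*) and 2 lower, against 6.95% and 7.57%. Over the whole course, from Day 0 to Day 3, 4 genes were higher (*Scd1*, *Scd2*, *Elovl1*, *Elovl7*), against 12% of all genes, and 0 were lower, against 26.3% (unadjusted 5 and 2, against 14.7% and 33.4%). The median of the 10 genes was 0.32 and that of all genes -0.31, and relative to the latter the 4 rises were 1.28, 1.48, 2.30 and 2.46. Under median ratio scaling (median of all genes -0.04) *Fasn* and *Elovl6* were called higher as well. All genes then split into 2134 higher and 2047 lower, in place of 1460 and 3207. *Elovl6* was also called higher with the same sum per library (0.57, adjusted p = 0.0327, limma). *Elovl5* was called lower without replicate 2 of Day 3 (-0.46). The test of any change over the days called 7 of the 10 (all but *Acaca*, *Fasn* and *Elovl5*), against 35.2% of all genes, and 5 to 8 when each library was left out in turn. With the replicate number as a block it called 8 of the 10 and 5004 of all genes, in place of 4292.

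Day 3 was also set against Day 1, a comparison added after the values had been seen. *Acly* (-0.71, adjusted p = 0.00912), *Scd1* (-0.59, 0.0259), *Elovl6* (-0.61, 0.0423) and *Fads2* (-0.69, 0.0129) were lower on Day 3 by limma and *Elovl7* (0.70, 0.0134) was higher, that is 4 of 10 against 12.2% of all genes and 1 of 10 against 7.04% (unadjusted 7 and 2, against 23.1% and 10.8%). With only these 2 days fitted, 0 of the 10 genes were called in either direction (adjusted p = 0.0532 to 0.113 for the genes above, limma). *Scd1* was not called with quantile normalization (-0.45, adjusted p = 0.13) or without the trend of eBayes (0.0794). *Elovl6* was not called with no filter (0.0584), scaling to equal sums (0.0635) or without that trend (0.0971). A filter of 10 FPKM in 1 library gave 5 lower. The median of all genes fell by 0.20 between these days. Relative to it the 4 falls were -0.50, -0.39, -0.41 and -0.49, and with median ratio scaling 0 of them passed (adjusted p = 0.0661, 0.168, 0.226 and 0.0785) while *Elovl1* was called higher (1.04, adjusted p = 0.0442) beside *Elovl7*. Without replicate 2 of Day 1 limma called 0 of the 10 genes in either direction (adjusted p = 0.0505, 0.114, 0.181 and 0.0653 for the 4 falls and 0.0666 for *Elovl7*), and with any other library of Days 0, 1 or 3 left out it called 2 lower. *Elovl7* was also not called without replicate 2 of Day 3 (0.0787), and *Elovl1* was called higher without replicate 1 of Day 3 (0.0386). *Acaca* was lower with the replicate number as a block (-0.53, adjusted p = 0.0449, against 0.0619 without it). Of the 10 genes, 6 had their highest mean on Day 1, compared with 24.2% of all genes tested, and among these 6 the libraries of Days 1 and 2 overlapped for *Fasn*.

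The second step differed from the first for *Acly*, by -1.46 (SE 0.23, adjusted p = 0.0367, limma), and for *Scd1*, by -1.89 (SE 0.25, adjusted p = 0.0298). These are 2 of 10 genes, against 0.36% of all genes with such a negative difference, and 0 of 10 had a positive one, against 0.688% (unadjusted 8 lower and 0 higher, against 8.24% and 7.45%). The shares at adjusted p were unstable. Of all genes, 44 were lower and 84 higher, against 5 and 11 with no filter and 143 and 226 with the replicate block. *Elovl6* missed the threshold (-1.58, adjusted p = 0.0537) and passed it with the replicate block (0.0308) and with quantile normalization (0.0412). No library decides the sign of these differences, but the call of *Acly* was lost when any 1 library of Days 0 to 2 was left out (adjusted p = 0.0771 to 0.254), and that of *Scd1* for each of them except replicate 1 of Day 1 (0.0634 to 0.213). Both calls were lost with no filter (0.0558 and 0.0513) and without the trend of eBayes (0.094 and 0.0698), and that of *Acly* also with a pseudocount of 0.1 (0.052) and with median ratio scaling (0.0585).

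FPKM is scaled to transcript length, so that levels may be compared between genes. The FPKM of *Scd1* was 0.162 and 0.146 times that of *Scd2* on Day 0, 0.222 and 0.224 times on Day 1, 0.161 and 0.137 times on Day 2, and 0.135 and 0.134 times on Day 3. The ratio was highest in both Day 1 libraries, and its slope over the days of -0.12 log2 units per day did not pass an exact permutation test over the arrangements of the 8 libraries (two-sided p = 0.243, adjusted p = 0.283 over the 7 pairs tested). A slope measures a steady trend and not a peak on Day 1, so this test does not decide whether the ratio of *Scd1* to *Scd2* changed. *Elovl5* had 5.70 and 5.38 times the FPKM of *Elovl7* on Day 0, 1.87 and 2.05 times on Day 1, 1.12 and 1.07 times on Day 2 and 0.940 and 0.965 times on Day 3. The days did not overlap in this ratio, and the slope was -0.82 per day (exact permutation p = 0.000794, which no arrangement can undercut, adjusted p = 0.00556).

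*Elovl1* over *Elovl5* went the other way, from 0.387 and 0.234 on Day 0 to 0.643 and 0.738 on Day 1, 0.722 and 0.847 on Day 2, and reached 1.36 and 1.72 on Day 3 (slope 0.71, exact permutation p = 0.00159, adjusted p = 0.00556). *Elovl6* over *Elovl7* fell from 3.34 and 2.70 on Day 0 to 0.919 and 0.817 on Day 3 (slope -0.66, exact permutation p = 0.00556, adjusted p = 0.00972), and *Elovl1* over *Elovl6* rose from 0.661 and 0.466 to 1.40 and 2.04 (slope 0.54, exact permutation p = 0.00238, adjusted p = 0.00556). The slopes of *Elovl1* against *Elovl7* and of *Elovl5* against *Elovl6* did not pass (exact permutation, adjusted p = 0.475 and 0.283). On Day 0 *Elovl5* was thus the most abundant of the 4 elongase genes and *Elovl7* the least, and on Day 3 *Elovl1* was the most abundant, with *Elovl7*, *Elovl5* and *Elovl6* at 62.1 and 74.3, 58.3 and 71.7 and 57.0 and 60.7 FPKM.

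**Figure D3:**
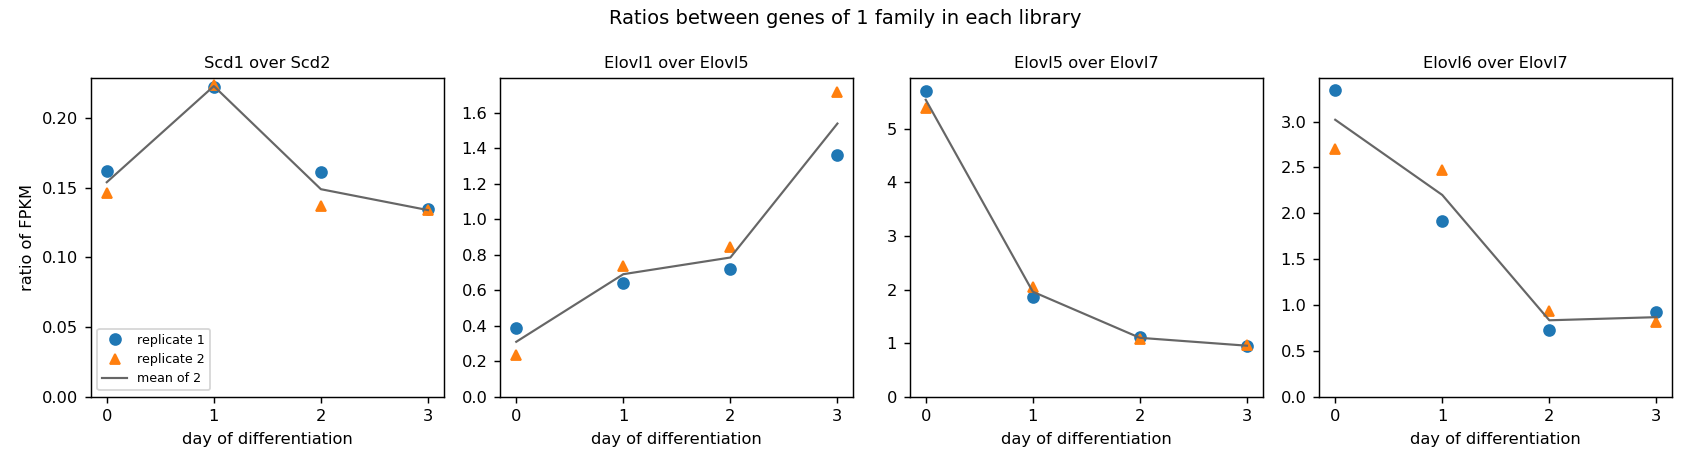
Ratio of the FPKM of 2 genes of the same family (y axes, from 0) in each library against the day of differentiation (x axes), with a circle for replicate 1, a triangle for replicate 2 and a line through the mean of the 2 libraries. *Scd1* over *Scd2* peaks on Day 1 at 0.222 and 0.224, *Elovl1* over *Elovl5* climbs to 1.36 and 1.72, and *Elovl5* over *Elovl7* and *Elovl6* over *Elovl7* end under 1.

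By mean FPKM the order on Day 0 was *Scd2*, *Fads2*, *Fasn*, *Scd1*, *Acly*, *Elovl5*, *Elovl6*, *Acaca*, *Elovl1* and *Elovl7*, where *Scd1* and *Acly*, and *Acaca* and *Elovl1*, overlapped between libraries. On Day 3 it was *Scd2*, *Scd1*, *Fasn*, *Fads2*, *Acly*, *Elovl1*, *Elovl7*, *Elovl5*, *Elovl6* and *Acaca*, and the libraries of *Acly* and *Elovl1*, of *Elovl7* and *Elovl5* and of *Elovl5* and *Elovl6* overlapped. The 10 genes together held 1475 and 1497 FPKM on Day 0, which was 0.366% and 0.368% of the summed FPKM of the library, and 2382 and 2853 on Day 3 (0.650% and 0.793%). *Scd2* made up 47.4% and 48.9% of their sum on Day 0 and 60.9% and 62.7% on Day 3, while the share of *Fads2* went from 12.5% and 14.7% to 6.66% and 5.63%.

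The genes whose course lay nearest to each of the 10 were found by the root mean square difference of log2(FPKM + 1), centred on each gene's mean, over the 8 libraries. For *Elovl7* they were *4930402H24Rik* (0.0714) and *Cnp* (0.147), the myelin gene used as an OL marker above. *Elovl6* was nearest to *Idi1* (0.132), a gene of cholesterol synthesis, and *Gpc2* (0.139), and *Scd1* to *Slc25a1* (0.116), which encodes the mitochondrial citrate carrier, and *Nacc2* (0.151). *Scd2* was nearest to *3110002H16Rik* (0.0702) and *St7l* (0.103), and *Elovl1* to *Stim1* (0.170) and *Magt1* (0.181). *Acly* was nearest to *Atg5* (0.0900) and *Pdp2* (0.113), *Fasn* to *Abcb10* (0.0985) and *Dars* (0.104), and *Acaca* to *Fig4* (0.0636) and *Cyb561d2* (0.0961). *Fads2* was nearest to *Cog6* (0.0806) and *Arfgef1* (0.0809), and *Elovl5* to *Vcp* (0.0736) and *Arpc5l* (0.0758). Within the 10 genes *Acly* and *Elovl6* were the closest pair (0.142).

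Of 26 other genes of supply, elongation and desaturation, 21 were tested, and 7 rose and 1 fell in the first step by limma, against 5.04% and 7.56% of all genes (median 0.24, against 0.93 for the 10 genes and -0.07 for all genes). Each elongation cycle also needs a reductase, a dehydratase and a second reductase. *Tecr*, which encodes the last of these, was at 249/285 FPKM on Day 0 and 394/443 on Day 1 (0.65, adjusted p = 0.0176, but 0.15, 0.0693 and 0.0959 without replicate 1 of Day 0, replicate 2 of Day 0 or replicate 2 of Day 1, 0.0684 without the trend of eBayes and 0.0569 with only these 2 days fitted). *Hsd17b12*, the first reductase, was at 94.3/101 on Day 0 and 100.2/132 on Day 1 (0.24, adjusted p = 0.48), and *Hacd3*, a dehydratase, at 74.2/75.1 on Day 0 and 62.3/73.8 on Day 1 (-0.14, adjusted p = 0.599). From Day 0 to Day 3, 5 of the 21 rose and 2 fell, against 12% and 26.3% of all genes. *Cyb5a*, the cytochrome that passes electrons to desaturases, showed the largest rise, from 54.0 and 44.6 to 259 and 270.3 FPKM (2.41, adjusted p = 5.1e-05), followed by the dehydratase gene *Hacd2*, from 6.15 and 5.20 to 11.2 and 21.1 (1.30, adjusted p = 0.0124, and 0.0519 to 0.0803 without either library of Day 0 or replicate 2 of Day 3). *Elovl2*, an elongase of polyunsaturated chains, fell from 4.59 and 6.80 to 0.239 and 1.09 (-2.04, adjusted p = 0.00384), and *Mcat*, of mitochondrial fatty acid synthesis, from 9.30 and 6.89 to 3.39 and 3.31 (-1.05, adjusted p = 0.0231, 0.0654 with median ratio scaling, 0.128 with quantile normalization (-0.62) and 0.0555 to 0.145 with any 1 library of Day 0 or Day 3 left out).

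Of the genes that control lipid synthesis, 21 of 23 were tested, and 4 rose and 0 fell in the first step (limma), against 5.04% and 7.56% of all genes. *Srebf1*, which encodes the SREBP factor known for driving fatty acid genes, was at 19.7/29.4 FPKM on Day 0 and 28.3/46.0 on Day 1 (0.56, adjusted p = 0.301, and 0.0314 with the replicate block). *Srebf2*, whose product is known for driving cholesterol genes, was at 95.6/86.3 on Day 0 and 113/119 on Day 1 (0.35, adjusted p = 0.137). From Day 0 to Day 3, 4 of the 21 rose and 2 fell (12% and 26.3% of all genes). *Thra*, which encodes a receptor of T3, rose from 45.3 and 46.8 to 179.6 and 174 FPKM (1.92, adjusted p = 0.000394), and *Tcf7l2*, a transcription factor of differentiating OLs, from 22.8 and 27.3 to 68.3 and 42.0 (1.07, adjusted p = 0.00581, and 0.0519 without replicate 1 of Day 0). Between these days *Tcf7l2* was higher than on either, at 84.2 and 92.0 on Day 1 and 96.7 and 95.4 on Day 2. *Nfyb* and *Nfyc*, which encode subunits of the factor that binds CCAAT, fell by 0.98 and 0.92 on the log2 scale (adjusted p = 0.0127 and 0.0206), the latter not with median ratio scaling (0.114), quantile normalization (0.0516) or only the 2 days fitted (0.0663). Neither was called without a library of Day 0 (0.0589 to 0.0949), nor *Nfyb* without replicate 2 (0.0643) and *Nfyc* without replicate 1 (-0.52, 0.0664) of Day 3.

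Downstream of synthesis, 22 of 25 genes of activation, binding and the first glycerolipid steps were tested, and from Day 0 to Day 3, 8 rose and 8 fell (limma), against 12% and 26.3% of all genes. *Dgat2*, of triacylglycerol synthesis, rose from 6.37 and 7.60 to 237 and 194 FPKM (4.76, adjusted p = 4.78e-05) and *Agpat4*, of phosphatidic acid synthesis, from 19.1 and 26.0 to 93.1 and 83.1 (1.93, adjusted p = 0.00014). The acyl-CoA synthetase gene *Acsl5* fell from 20.1 and 14.7 to 1.45 and 1.32 (-2.93, adjusted p = 0.000151), and *Fabp7*, a fatty acid binding protein of precursors, from 1420.1 and 1368 to 166 and 285 (-2.67, adjusted p = 0.000517). Of 20 genes of fatty acid oxidation tested among 21, 1 rose in the first step (5.04% of all genes). Over the course, where 12% of all genes rose and 26.3% fell, 4 rose, *Hadh* (1.68, adjusted p = 0.000961) the most, and 3 fell, *Acads* (-1.69, adjusted p = 0.00195) and *Acaa2* (-1.50, adjusted p = 0.0334, 0.0633 with median ratio scaling, 0.0874 with quantile normalization (-1.08), 0.0574 with no filter and 0.0828 to 0.13 with any 1 library of Day 0 or Day 3 left out) the most.

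Cholesterol synthesis was the pathway set beside the 10 genes. All 21 of its genes were tested, and 19 rose in the first step (limma), against 5.04% of all genes, with a median of 1.29 against 0.93 for the fatty acid genes. On Day 3 the medians relative to Day 0 were 0.51 and 0.32. The highest mean fell on Day 1 for 17 of the 21 cholesterol genes and for 6 of the 10 fatty acid genes, against 24.2% of all genes. *Hsd17b7*, from 14.0 and 15.0 to 183 and 249 FPKM (3.79, adjusted p = 4.78e-05), and *Ebp*, from 10.5 and 12.6 to 39.0 and 46.8 (1.80, adjusted p = 0.00481), had the largest rises to Day 3 of that list. The difference between the lists was not tested.

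**Figure D4:**
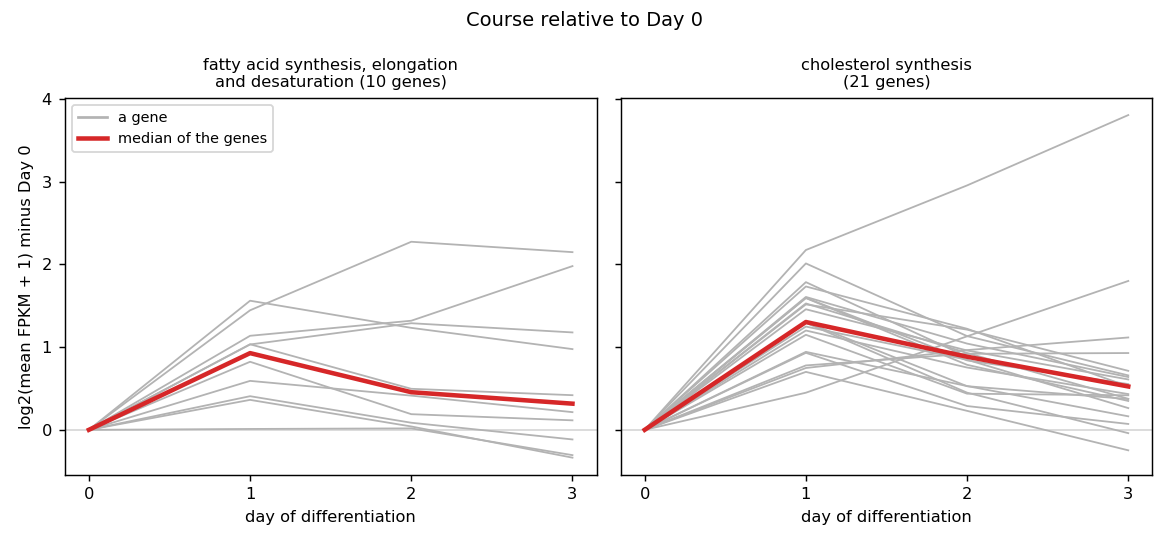
Log2 of mean FPKM + 1 minus its value on Day 0 (y axis, the same in each panel) against the day of differentiation (x axes) for each of the 10 fatty acid genes and the 21 cholesterol synthesis genes in grey, with the median of each list in red. The medians of both lists are highest on Day 1.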

How the data were processed

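The RNA of 8 libraries of cultured WT OPCs and differentiating OLs was measured by paired-end sequencing of stranded, poly(A)-selected mRNA on a MiSeq. The authors deposited 1 table of FPKM, computed with OmicSoft ArrayStudio, and these values were used without further scaling. The paper names DESeq2 as the authors' tool for differential expression in general, and it was not used here. For the OPCs before differentiation the labels give a medium with serum and the methods of the paper a medium without it, they also differ on the RNA kit, and what either means for lipid genes was not tested.

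The 12208 of 23427 genes that reached 1 FPKM in 2 or more libraries were compared between days with limma 3.58.1 (R 4.3.3; eBayes with a trend) on log2(FPKM + 1), two-sided, with day as a factor over all 8 libraries and 4 residual degrees of freedom. p was adjusted by Benjamini-Hochberg over all genes tested, and a change is an adjusted p under 0.05. The comparison of Day 3 with Day 1 was added after the values had been seen. Slopes of the log2 difference between 2 genes were tested by exact permutation. Tables were made in Python 3.11.15 (pandas 2.3.3, numpy 2.4.6), intervals with scipy 1.17.1 and figures with matplotlib 3.10.9. The fit was tested on simulated data for Day 3 against Day 0. It recovered 25 of 100 changes of 1 log2 unit and 69 of 100 changes of 2 log2 units, and called 9 unchanged genes. A change that did not pass is therefore not shown to be absent.

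The 10 genes and the lists were chosen with earlier results of these data known. From each pathway list the 2 largest rises and falls to Day 3 that passed without overlap between libraries are named, with 6 partner genes. Some genes of these lists and of the markers are not reported here. Alternatives were a pseudocount of 0.1, no filter (15267 genes), a filter of 10 FPKM in 1 library (8202 genes), quantile normalization, median ratio scaling and scaling to equal sums. Others left out each library in turn, dropped the trend of eBayes, fitted the 2 days alone or took the replicate number as a block. Depth, estimated from the FPKM values, was about 960000 to 1530000 fragments. Among the 10 genes, *Elovl1*, with 26 to 42 fragments in its lowest library, has the largest counting error.

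On each day the labels call the libraries 1 and 2. Deviations from the day means of libraries with the same number were correlated (r between 0.164 and 0.285 over the 6 pairs of days). The numbers were taken to pair the libraries only in the alternative with the replicate block. The main limma fit and the main permutation tests did not pair them. Neither the labels nor the paper states a shared isolation.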

Additional observations from a re-analysis of the deposited data

Results flagged for a closer look

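The difference between the second and the first step was tested by limma as a contrast of Days 0, 1 and 2, in which a rise that levels off is also negative. Of the 10 genes limma called *Acly* at -1.46 (adjusted p = 0.0367) and *Scd1* at -1.89 (adjusted p = 0.0298). For both, the step from Day 1 to Day 2 went the other way from the step from Day 0 to Day 1 in each replicate (*Acly* 0.72 then -0.69 in replicate 1 and 0.93 then -0.58 in replicate 2, *Scd1* 1.42 then -0.17 and 1.70 then -0.49). The median of all genes from Day 1 to Day 2 was -0.18 in each replicate, so that relative to it *Scd1* did not fall in replicate 1, and its second step did not pass overall (-0.33, adjusted p = 0.236). The difference was not particular to these genes: in the cholesterol synthesis list 8 of 21 genes were lower in the same test (18 at an unadjusted p under 0.05), against 0.36% of all genes (8.24% unadjusted), with a median of -1.85 against -0.77 for the 10 fatty acid genes, and in the list of other supply and chain genes 2 of 21 were. Astrocyte markers were higher in replicate 2 than in replicate 1 on every day, and their part in this difference was not tested. A technical and a biological origin were not tested against each other.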

How the results depend on the processing

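Each alternative changed 1 choice, and the cause of a change was not tested unless the construction shows it. The 4 genes higher in Day 3 against Day 0 (*Scd1*, *Scd2*, *Elovl1*, *Elovl7*) kept direction and call under every alternative. The 4 slopes between elongases that passed kept theirs with a pseudocount of 0.1, the replicate block and each library left out, and were not run under the others. The 3 scalings kept the 7 genes higher in Day 1 against Day 0, where no filter gave 6 members higher, and eBayes without a trend and only the days compared gave 5.

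Leaving out 1 library leaves 3 residual degrees of freedom in place of 4, which by construction changes the number of calls. The range was then 2 to 7 members higher (7 with all libraries), 216 to 627 of all genes higher (615) and 359 to 958 lower (923) for Day 1 against Day 0. For Day 2 against Day 1 it was 0 to 1 members higher and 0 to 1 lower, with 11 to 221 of all genes higher (264) and 0 to 224 lower (211). For Day 3 against Day 2 it was 0 to 78 of all genes higher (30) and 0 to 145 lower (6). For Day 3 against Day 0 it was 0 to 1 members lower, 965 to 1440 of all genes higher (1460) and 1799 to 3108 lower (3207). For Day 3 against Day 1 it was 0 to 2 members higher, 0 to 4 lower, 396 to 793 of all genes higher (859) and 491 to 1423 lower (1485). For the second step minus first step it was 0 to 2 members lower, 0 to 75 of all genes higher (84) and 0 to 52 lower (44), counts that were 11 and 5 with no filter, 46 and 5 without a trend in eBayes, 25 and 20 with a pseudocount of 0.1 and 140 and 72 with quantile normalization, so that the share of all genes in this comparison is unstable. The range was 2100 to 3992 of all genes called (4292) for any change over days.

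A fit of only the days compared has fewer libraries by construction. It gave 406 of all genes higher for Day 1 against Day 0, and 0 of all genes and 0 members in either direction for Day 2 against Day 1. It gave 0 of all genes in either direction for Day 3 against Day 2, and 0 members higher, 0 lower, 432 of all genes higher and 414 lower for Day 3 against Day 1.

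Without a trend, eBayes gave 0 members higher, 0 lower, 82 of all genes higher and 39 lower for Day 2 against Day 1, 0 of all genes in either direction for Day 3 against Day 2, 2 members lower for Day 3 against Day 1 and 0 members lower for the second step minus first step. With no filter, where more genes are tested by construction, it was 0 members lower, 154 of all genes higher and 93 lower for Day 2 against Day 1, 0 of all genes in either direction for Day 3 against Day 2 and 0 members lower for the second step minus first step. A pseudocount of 0.1 gave 4 of all genes higher for Day 3 against Day 2 and 1 member lower for the second step minus first step.

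Median ratio scaling sets the median change near 0 by construction. It gave 0 members lower and 104 of all genes lower for Day 2 against Day 1, 2 members higher, 0 lower and 788 of all genes lower (1151 higher, against 859) for Day 3 against Day 1, and 1 member lower for the second step minus first step. For Day 3 against Day 0 all genes split into 2134 higher and 2047 lower, in place of 1460 and 3207, and with quantile normalization into 2097 and 2185. Quantile normalization gave 131 of all genes lower for Day 2 against Day 1, 988 lower for Day 3 against Day 1, 843 higher and 833 lower for Day 1 against Day 0, and 4 members lower for the second step minus first step.

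With the replicate block, which pairs the libraries by number, 436 of all genes were lower for Day 2 against Day 1, 119 were higher and 44 lower for Day 3 against Day 2, and 226 were higher and 143 lower for the second step minus first step. For any change over days it called 8 members in place of 7 and 5004 of all genes in place of 4292. The block called *Acaca* lower for Day 3 against Day 1 (adjusted p = 0.0449), *Elovl6* for the second step minus first step (0.0308) and *Srebf1* higher for Day 1 against Day 0 (0.0314), and changed no other call of a named gene between days.

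The sign reversed only for changes that did not pass. *Acaca*: Day 3 against Day 0 (-0.13) was 0.02 with the same sum per library, 0.18 with median ratio scaling, 0.03 with quantile normalization and -0.30 to 0.04 with a library left out. *Fasn*: Day 2 against Day 1 (-0.18) was 0.02 with median ratio scaling. With quantile normalization *Scd2*: Day 2 against Day 1 (0.26) was -0.36, *Scd2*: Day 3 against Day 2 (-0.12) was 0.17 and *Scd2*: Day 3 against Day 1 (0.14) was -0.19; with a library left out the last 2 were -0.27 to 0.03 and -0.01 to 0.29. *Elovl5*: Day 1 against Day 0 (0.01) was -0.01 with quantile normalization and -0.01 to 0.03 with a library left out, and *Elovl5*: Day 2 against Day 1 (0.01) was -0.01 to 0.03. *Elovl5*: Day 3 against Day 0 (-0.31) was 0.00 with median ratio scaling, and *Elovl5*: second step minus first step (0.00) was 0.11 with it, 0.04 with quantile normalization and -0.05 to 0.04 with a library left out. With a library left out *Acly*: Day 3 against Day 2 (-0.07) was -0.17 to 0.03, *Elovl6*: Day 3 against Day 2 (-0.07) was -0.26 to 0.12 and the slope of Elovl1 minus Elovl7 on day (-0.11) was -0.24 to 0.02.

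With 2 libraries per day, the smallest exact p of a comparison of 2 days is 0.333, so these comparisons rest on the spread limma shares between genes. About 960000 to 1530000 fragments per library leave 26 to 42 fragments for *Elovl1* and 74 for *Elovl7* in replicate 2 of Day 0, the fewest for each. The values of genes with fewer fragments carry a larger counting error. FPKM does not give the count error of a library. Relative values cannot show a change of total RNA per cell. The share of astrocytes in replicate 2 was not removed.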
